A study of Mus musculus with 8 samples.

Results

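The comparison described here sets the Dnmt3a-KO arrays of days 4 and 6 against the WT arrays of the same days. It uses 4 of the 8 arrays of the series, which make 2 pairs, 1 pair a day. Both days were put together as a pair selected on earlier results of these data, so the differences between genotypes on days 4 and 6 are given as descriptions with no test. Dnmt3a-KO means a knockout of Dnmt3a, and WT means wild-type littermates matched for age and sex, labelled male and 8 weeks old. Satellite cells, which are muscle stem cells, came from the extensor digitorum longus, a fast muscle of the lower hindlimb. The cells of both genotypes spent 5 days in growth medium, were replated at matched cell number and were then kept in differentiation medium, and the day number counts days in that second medium. The labels name neither the promoter that drives the deletion nor the number of animals behind an array. Each genotype had 1 array a day, so no spread between samples of a group can be given.

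DNMT3A is one of the enzymes that place new methyl groups on cytosines in DNA, and the knockout removes a source of a mark that is often found at silent promoters and in the bodies of active genes. Satellite cells in differentiation medium leave the cell cycle, fuse and build the contractile apparatus. Cells in such cultures also make collagens and other matrix proteins, and a share of cells keeps dividing or belongs to other cell types.

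Values are relative signals: the processed signal of a probe over the 75th percentile of its own array, taken over 43020 spots that are not controls, times 100. A value of 100 therefore marks the 75th percentile of an array, and 0.763 is the floor to which lower values were set. Differences are log2 values, Dnmt3a-KO minus WT, so 1 is a 2-fold higher and -1 a 2-fold lower signal in Dnmt3a-KO. Of 31756 genes on the array, 19642 were well above background, in the scanner software's call, on at least 2 of the 4 arrays, and 61.6% to 62.9% of all spots were well above background on these arrays. Probes spotted more than once on an array, 399 in all, varied between their spots with a median SD that ran from 0.0591 to 0.160 on the log2 scale, which is the spread of spots within an array and not of cultures. In the file headers the day 4 pair had the same scan date as the day 5 pair, and the day 6 pair had one of its own. Between days 4 and 6, day and scan date therefore cannot be told apart, while the 2 genotypes of a day always had the same scan date. Which arrays lay on the same slide was not read.

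Sex-linked genes went against the labels for these 4 arrays. Ddx3y, Eif2s3y, Kdm5d and Uty, which lie on the Y chromosome, were well above background on 0 of the 4 arrays, and Xist, which is transcribed from an inactive X chromosome, on all 4. On both day 2 arrays the call was positive for the same 4 Y-linked genes. Within a day both genotypes were alike in these calls.

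The targeted gene was lower in Dnmt3a-KO on both days. Dnmt3a gave 265 in WT and 52.45 in Dnmt3a-KO on day 4, and 203.5 and 38.9 on day 6, a difference of -2.34 and -2.39. Both Dnmt3a-KO values lay under both WT values, as they did in 22.0% of all genes measured, and in 23.9% both lay above. For genes chosen as at least 2-fold different on both days such a gap largely comes with the choice and supports nothing. The probe sits at chr12:3914320-3914379 of mm9, and the sources used here do not say whether the deleted part covers it. Over the 18 measured genes of the DNA methylation machinery, the median difference was -0.06 on day 4 and -0.15 on day 6, and Dnmt3a was the 1 member at least 2-fold lower on both days.

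In 95 genes, 0.484% of those measured, the signal was at least 2-fold higher in Dnmt3a-KO on both days, and in 205 genes, 1.04%, it was at least 2-fold lower on both. A gene was counted on a day when the brighter array was well above background. The dimmer array entered with its own signal or the floor, so some counted genes have a bound under 2-fold. Adipoq, for example, has a bound of 1.6-fold on day 6. With normexp background correction (offset 50) and quantile normalization in place of the processed signal, the counts were 7 and 29. Day 4 by itself had 306 genes (1.56%) higher and 607 (3.09%) lower, and day 6 had 287 (1.46%) higher and 375 (1.91%) lower. The genes lower on both days made up 33.8% of those lower on day 4 and 54.7% of those lower on day 6. For genes higher on both days the shares were 31.0% and 33.1%. Across all 19642 genes the differences of both days had a Pearson correlation of 0.49 and a Spearman correlation of 0.48, while any other pair of the 4 days of the series gave a Pearson correlation of 0.12 to 0.20. These are correlations across genes, which are not replicates. Days 4 and 6 were put together on earlier results of these data, so their higher correlation can come with that choice and is a description only. The day 2 arrays were also read on another scanner. The genes just inside the limit were Hoatz, with differences of 2.44 and 1.001, and Aspm, with -1.001 and -1.47. Just outside lay H2bc22, with 2.03 and 0.998, and Myh7b, with -1.84 and -0.99.

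**Figure D1:**
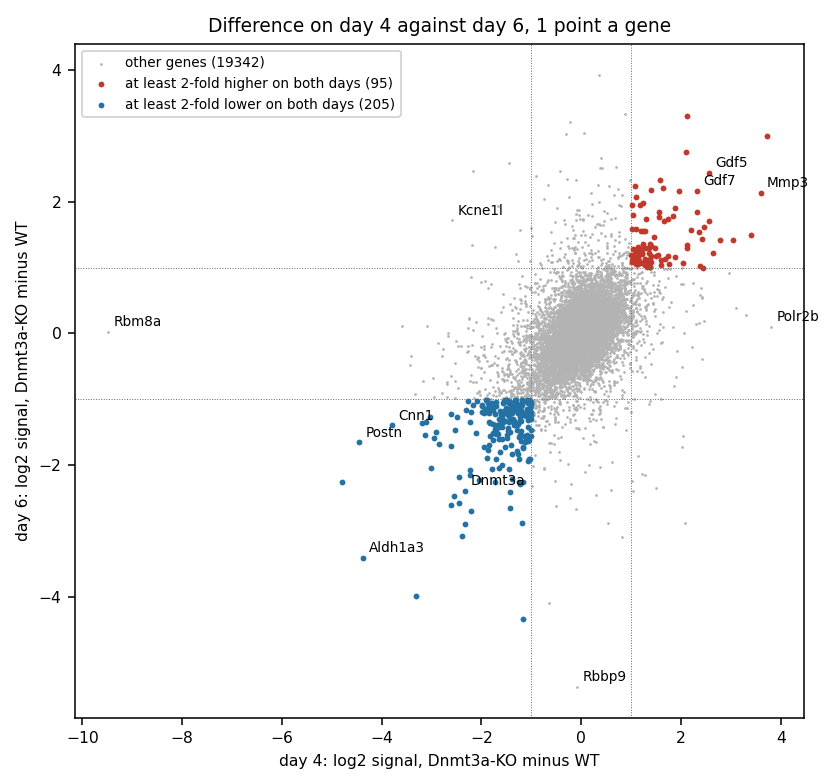
Each point is 1 of 19642 genes, with its log2 difference, Dnmt3a-KO minus WT, on day 4 on the x axis and on day 6 on the y axis. Red points are the 95 genes at least 2-fold higher on both days, blue points the 205 at least 2-fold lower on both, and dotted lines mark 2-fold. Of the days plotted, Rbm8a, Polr2b and Rbbp9 stand far from 0 on 1 only.

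Genes of cell division formed 1 group among the lower genes. Of 36 measured genes of mitosis and G2/M, 34 were lower in Dnmt3a-KO on both days and 13 were at least 2-fold lower on both. The list median was -1.21 on day 4 and -0.90 on day 6, beside -0.02 and 0.02 over all genes. After normexp the medians were -0.43 and -0.36. In all, 6412 of the 19642 genes (32.6%) were lower on both days, and 205 (1.04%) were at least 2-fold lower on both.

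Cdk1, the kinase that drives entry into mitosis, gave 15.9 in WT and 5.24 in Dnmt3a-KO on day 4, and 16.1 and 6.85 on day 6. That is a 3.03-fold and a 2.35-fold lower signal, and both WT values lay above both Dnmt3a-KO values. Melk, a kinase of dividing cells, gave 12.5 and 3.60 on day 4 and 11.25 and 5.07 on day 6. Nuf2, a part of the kinetochore complex that binds microtubules, gave 8.88 and 2.42 on day 4 and 6.96 and 3.35 on day 6. Kif4, a chromosome-bound kinesin, gave 4.17 and 1.59 on day 4 and 3.70 and 1.04 on day 6, with neither Dnmt3a-KO array well above background, so its signal was at least 2.62-fold and at least 3.29-fold lower. All of them were low signals beside the 75th percentile, which is set at 100.

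Genes of the preceding step, G1/S and DNA replication, lay closer to 0. Of 36 measured, 25 were lower on both days, beside 32.6% of all genes, and 2 were at least 2-fold lower on both, beside 1.04%. The list median was -0.45 on day 4 and -0.36 on day 6. Tk1, the thymidine kinase of dividing cells, gave 38.7 in WT and 16.3 in Dnmt3a-KO on day 4, and 33.5 and 15.3 on day 6. E2f7, a repressor of the E2F family, gave 20.4 and 8.35 on day 4 and 21.5 and 10.24 on day 6, but another probe of E2f7 gave differences of -0.06 and 0.22, so its probes disagreed. Among the 16 measured canonical histones, H1f5 and H2ac4 were at least 2-fold lower on both days, and the list median was 0.03 and 0.14. H1f5, a linker histone, gave 37.6 and 10.8 on day 4 and 26.6 and 12.1 on day 6. H2ac4, a core histone of the H2A type, gave 337 and 145 on day 4 and 268 and 126 on day 6. H3c8, a core histone gene that is not among the 16 and was chosen after its values were seen, was higher in Dnmt3a-KO, with 8.74 and 22.8 on day 4 and 13.3 and 26.75 on day 6.

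**Figure D2:**
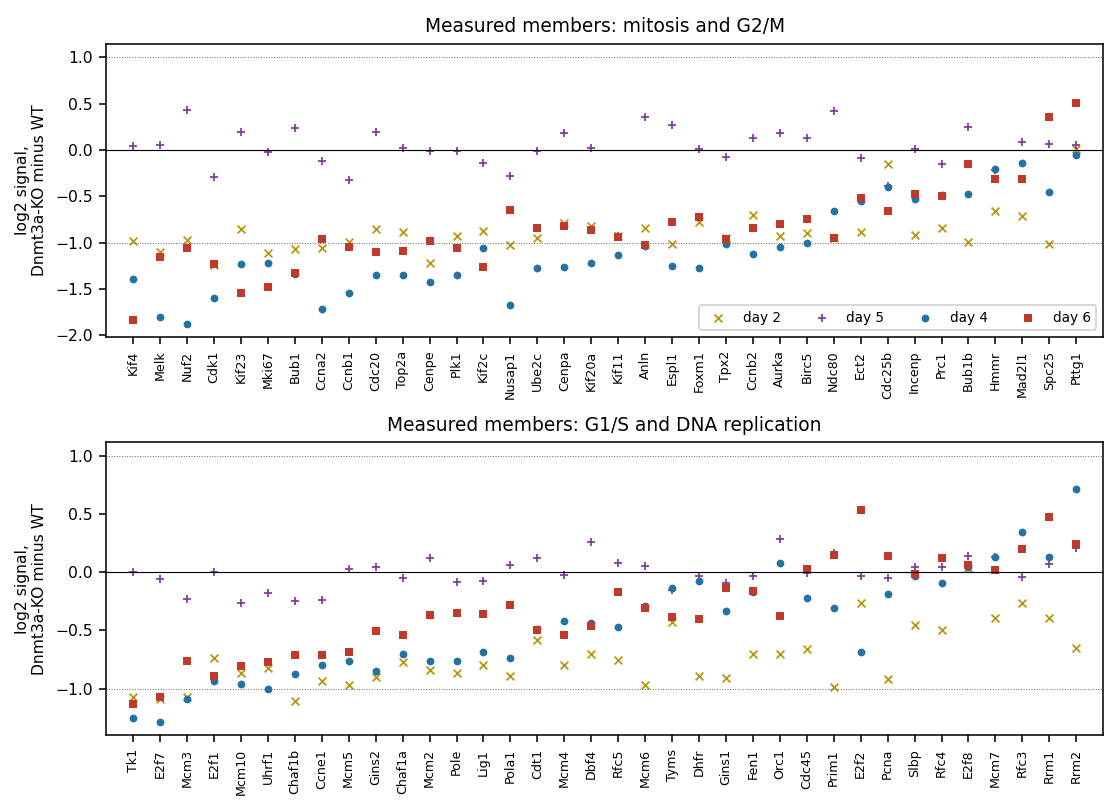
Log2 differences, Dnmt3a-KO minus WT, of the 36 measured genes of mitosis and G2/M (upper panel) and the 36 of G1/S and DNA replication (lower panel), 1 symbol a day, ordered by the mean of days 4 and 6, with dotted lines at 2-fold. On days 4 and 6, 34 of 36 mitosis genes lie below 0 on both days, and the median of day 5 is 0.02.

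Promoters of the cell cycle genes at least 2-fold lower on both days were searched for the letters of 3 motifs, on both strands, in RefSeq windows of GRCm38.p6 that run from 250 bases before to 50 after a gene's start. All 15 genes matched a window. The CHR element of late cell cycle genes, TTTGAA, stood in a window of 9 of the 15 genes (60.0%), beside 43.5% of the 62 measured members of both cell cycle lists with a window and 20.2% of 27025 genes of the promoter table. The NF-Y box, CCAAT, stood in 10 of 15 (66.7%), beside 67.7% of the list members and 41.1% of all. The E2F letters TTTGGCGC, TTTCGCGC or TTTCCCGC stood in 2 of 15 (13.3%), beside 21.0% of the list members and 2.12% of all. The shares of the NF-Y and E2F letters in the 15 genes were thus no higher than in the lists they came from. None of these words contains another. A match is a description of the letters, not of a bound site, and both lists were picked for their place in the cell cycle. The 4 mitosis genes with the most matches in the 150 bases before the start are shown, 5′ to 3′ on the gene's own strand, with matched letters of any of the motifs in capitals. They lie at chr10:69352913-69353062, chr11:99024190-99024339, chr7:135716380-135716529 and chr4:118437344-118437493 of GRCm38.p6, all on the minus strand.
Cdk1: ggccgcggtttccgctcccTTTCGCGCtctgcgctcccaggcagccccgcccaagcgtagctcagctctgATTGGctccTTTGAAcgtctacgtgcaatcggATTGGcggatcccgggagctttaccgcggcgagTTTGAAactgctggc
Top2a: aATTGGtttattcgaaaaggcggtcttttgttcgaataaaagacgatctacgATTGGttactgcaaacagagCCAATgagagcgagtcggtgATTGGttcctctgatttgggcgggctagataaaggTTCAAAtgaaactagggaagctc
Mki67: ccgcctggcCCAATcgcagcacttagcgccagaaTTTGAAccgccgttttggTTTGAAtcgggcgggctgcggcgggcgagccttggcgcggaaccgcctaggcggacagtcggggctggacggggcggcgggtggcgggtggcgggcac
Cdc20: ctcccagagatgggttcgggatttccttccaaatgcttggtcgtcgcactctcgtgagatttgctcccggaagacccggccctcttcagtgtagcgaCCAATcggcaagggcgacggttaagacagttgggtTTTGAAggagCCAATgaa
Cdk1 holds 2 CHR elements, 2 NF-Y boxes and 1 E2F site in this stretch, and Top2a holds 1 CHR element and 4 NF-Y boxes. Top2a, a DNA topoisomerase, had differences of -1.35 and -1.09. Mki67, the proliferation marker Ki-67, had -1.21 and -1.48, and Cdc20, an activator of the anaphase-promoting complex, had -1.35 and -1.10. These last 3 genes were chosen for their matches, with their values known.

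Collagens and other matrix genes formed another group among the lower genes. All 16 measured collagen genes were lower in Dnmt3a-KO on both days, and 6 of them were at least 2-fold lower on both. Their median difference was -1.36 on day 4 and -0.87 on day 6. Of 34 measured matrix glycoproteins and crosslinking enzymes, 24 were lower on both days and 5 were at least 2-fold lower on both, with a median of -0.65 and -0.61. Over all genes, 32.6% were lower on both days and 1.04% were at least 2-fold lower on both. After normexp the medians were -0.73 and -0.74 for the collagens and -0.24 and -0.39 for the glycoproteins and crosslinkers.

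Col1a1, a chain of type I collagen, gave 1361 in WT and 242 in Dnmt3a-KO on day 4, and 1233 and 513 on day 6, which is a 5.62-fold and a 2.40-fold lower signal. Col3a1, the chain of type III collagen, gave 345 and 111 on day 4 and 512 and 209 on day 6. The basement membrane chain Col4a1 gave 391 and 120.0 on day 4 and 471 and 163 on day 6. In each of these 3 genes the fold was wider on day 4 than on day 6. Col8a1, a short-chain collagen, gave 16.9 and 5.42 on day 4 and 28.7 and 9.41 on day 6.

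Postn, which encodes the matricellular protein periostin, had the widest gap of the matrix genes on day 4. It gave 55.3 in WT and 2.54 in Dnmt3a-KO on day 4, a 21.8-fold lower signal, and 19.4 and 6.16 on day 6, a 3.15-fold lower signal. Loxl2, an enzyme that crosslinks collagen, gave 277 and 48.4 on day 4 and 170 and 61.1 on day 6. Of its 3 other probes, 2 were also lower on both days and 1 gave differences of 0.14 and -0.01. Loxl3, of the same enzyme family, gave 42.8 and 14.2 on day 4 and 46.4 and 15.3 on day 6. Fbln2, the matrix glycoprotein fibulin-2, gave 2400 and 768 on day 4 and 2861 and 1069 on day 6.

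Enzymes that cut the matrix and their inhibitors went both ways. Of 18 measured, 3 were at least 2-fold lower on both days and 1 was at least 2-fold higher, beside 1.04% and 0.484% of all genes. The list median was -0.39 on day 4 and -0.65 on day 6. Adamts2, which removes the N-propeptide of procollagen, gave 50.8 and 5.79 on day 4 and 47.0 and 16.04 on day 6. Timp3, an inhibitor of metalloproteases, gave 322 and 86.9 on day 4 and 310 and 153.5 on day 6. Mmp3, the metalloprotease stromelysin-1, was the member that was higher: it gave 1.21 in WT and 14.7 in Dnmt3a-KO on day 4, and 1.84 and 8.11 on day 6. Neither WT array was well above background for Mmp3, so its signal was at least 12.2-fold higher on day 4 and at least 4.41-fold higher on day 6.

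**Figure D3:**
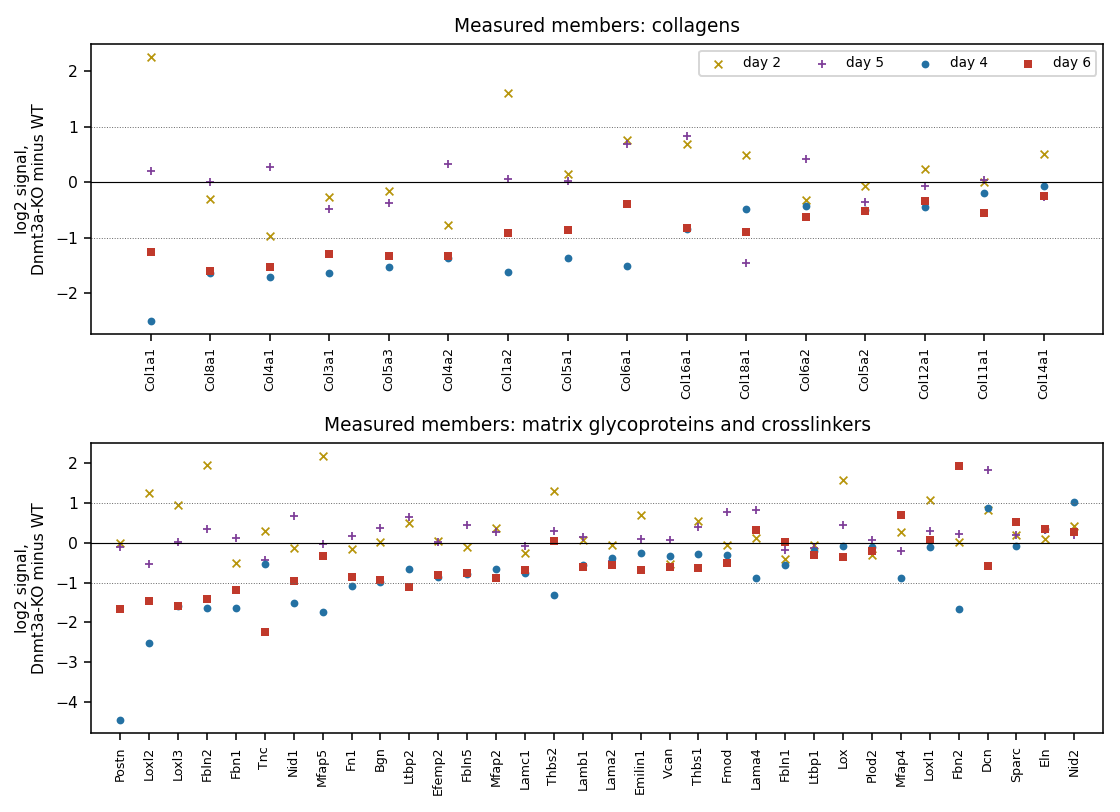
Log2 differences, Dnmt3a-KO minus WT, of the 16 measured collagen genes (upper panel) and the 34 measured matrix glycoproteins and crosslinkers (lower panel), 1 symbol a day, ordered by the mean of days 4 and 6, with dotted lines at 2-fold. All 16 collagens lie below 0 on days 4 and 6, and Col1a1 stands at -2.49 on day 4, at -1.26 on day 6 and at 2.25 on day 2.

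Fibroblasts and fibro-adipogenic cells are a source of such matrix in muscle cultures, and their markers are given beside it. Of 15 measured genes of that list, 8 were lower on both days, beside 32.6% of all genes. In 2 of them, Pi16 and Thy1, the signal was at least 2-fold lower on both, beside 1.04% of all genes. The list median was -0.36 and -0.34. Thy1, a surface protein of fibroblasts, gave 140.4 in WT and 41.35 in Dnmt3a-KO on day 4, and 256 and 83.3 on day 6. Pi16, a marker of a fibroblast subset, gave 4.64 and 1.49 on day 4 and 5.00 and 1.21 on day 6, at least 3.12-fold and at least 4.13-fold lower. Summed over the 6 defining markers (Pdgfra, Ly6a, Dcn, Lum, Thy1 and Twist2), the relative signal was 326 in WT and 220 in Dnmt3a-KO on day 4, and 502.5 and 374 on day 6. Thy1 made up most of that gap: the other 5 markers summed to 186 and 178 on day 4, and to 247 and 290 on day 6, where Dnmt3a-KO was the higher. Lum was not well above background on any of the 4 arrays. The part of these cells in the matrix differences was not tested, and in bulk RNA fewer cells of a type and less RNA per cell cannot be told apart.

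Contractile genes of smooth muscle were lower in part. Cnn1, which encodes calponin, gave 78.5 in WT and 5.70 in Dnmt3a-KO on day 4, and 51.1 and 19.4 on day 6, a 13.8-fold and a 2.64-fold lower signal. Tagln, the actin-binding protein transgelin, gave 7723 and 2576 on day 4 and 8745 and 3250 on day 6. Both genes had all WT values above all Dnmt3a-KO values. Rgs5, a pericyte marker, went the other way with 3.21 and 7.23 on day 4 and 1.36 and 5.25 on day 6, where its WT array was not well above background. Of 12 measured members of that list, 8 were lower on both days, beside 32.6% of all genes, with a median of -0.38 and -0.14. Myh11, the defining smooth muscle myosin, was not well above background on any of the 4 arrays. The summed signal of the 6 defining markers was 15400 in WT and 11060 in Dnmt3a-KO on day 4, and 11740 and 10480 on day 6. Cnn1 and Rgs5 made up little of these sums, which rest on brighter markers and do not show a drop in each of the 6. Ccn2, a secreted matricellular protein and target of TGF-beta, gave 2639 and 1109 on day 4 and 3462 and 1637 on day 6, while the other 20 of 21 measured genes of the TGF-beta and activin pathway were not at least 2-fold different on both days, and the list median was 0.01 and 0.04.

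Among the other genes with the largest shared differences, several were not detected in Dnmt3a-KO. Aldh1a3, an enzyme that makes retinoic acid, gave 15.8 in WT and the floor of 0.763 in Dnmt3a-KO on day 4, and 8.08 and 0.763 on day 6, at least 20.8-fold and at least 7.19-fold lower. Obp2a, an odorant-binding protein, gave 7.53 and 0.763 on day 4 and 12.1 and 0.763 on day 6. Il6, the cytokine interleukin 6, gave 6.11 and 0.763 on day 4 and 5.54 and 1.34 on day 6, and was the 1 of 17 measured cytokine and chemokine genes at least 2-fold lower on both days. Flt1, a receptor of vascular endothelial growth factor, gave 4.94 and 0.977 on day 4 and 6.65 and 0.893 on day 6. None of these 4 genes was well above background in Dnmt3a-KO on either day. Eps8l1, Pcp4l1 and Acss1 had the same pattern, with WT signals of 2.95 to 8.52. Of the 205 genes lower on both days, 42 were not well above background in Dnmt3a-KO on either day, and for those the size of the difference is a bound.

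The remaining leading genes were detected on all 4 arrays or on all but 1. Serpinb2, an inhibitor of plasminogen activators, gave 31.6 in WT and 6.06 in Dnmt3a-KO on day 4, and 98.3 and 11.6 on day 6. Itga11, a collagen-binding integrin chain, gave 15.3 and 3.32 on day 4 and 31.2 and 4.80 on day 6. Moxd1 gave 80.4 and 8.75 on day 4 and 61.75 and 24.1 on day 6. Grik3, a subunit of kainate receptors, gave 6.24 and 0.830 on day 4 and 5.46 and 1.94 on day 6.

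Muscle genes at least 2-fold lower on both days were few. Of 19 measured slow and cardiac contractile genes, 12 were lower on both days, beside 32.6% of all genes. Of the 19, 2, Myh7 and Myh6, were at least 2-fold lower on both, beside 1.04% of all genes. The list median was -0.62 on day 4 and -0.20 on day 6. Myh7, the myosin heavy chain of slow fibres, gave 4008 in WT and 1017 in Dnmt3a-KO on day 4, and 2008 and 880 on day 6. Myh6, the alpha cardiac chain, gave 35.4 and 14.5 on day 4 and 37.1 and 14.3 on day 6. The coding sequences of Myh6 and Myh7 are much alike, and a probe of one may read the other. Boc, a surface receptor of myogenic differentiation, gave 7.84 and 2.895 on day 4 and 9.48 and 2.26 on day 6 and was the 1 of 17 measured myogenic regulators and fusion genes at least 2-fold lower on both days. That list had medians of 0.14 and -0.02. The Dnmt3a-KO array of day 6 was not well above background for Boc. Fgfr4, a fibroblast growth factor receptor of satellite cells, gave 87.4 and 26.7 on day 4 and 80.4 and 29.35 on day 6. Of 24 measured genes of satellite cells and quiescence, 15 were lower on both days, again beside 32.6% of all genes, with a median of -0.29 and -0.32. The defining markers of satellite cells and myoblasts other than Myf5 were well above background on all 4 arrays, with a summed signal of 15570 to 16660.

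Among genes higher in Dnmt3a-KO, secreted ligands of the BMP and GDF family stood near the top. Gdf5, a growth and differentiation factor, gave 66.3 in WT and 394 in Dnmt3a-KO on day 4, and 64.85 and 353 on day 6, a 5.93-fold and a 5.45-fold higher signal. Its other probe gave differences of 2.75 and 2.60. Gdf7, a close relative of Gdf5, gave 10.6 and 52.85 on day 4 and 9.26 and 41.6 on day 6. Bmp2, a ligand that induces bone formation, gave 49.9 and 121 on day 4 and 49.4 and 102 on day 6. Dnmt3a-KO was the higher array on each day, as the choice of these genes requires. The probe of Gdf5 lies at chr2:155766801-155766860 and that of Gdf7 at chr12:8304980-8305039 of mm9. The other 22 of 25 measured members of the pathway were not at least 2-fold higher on both days. Of the 25, 11 were lower on both days and 12 were higher on both, beside 32.6% and 34.7% of all genes. The list median was -0.01 and 0.07.

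The other leading genes with a higher signal had low signals in WT. Fabp7, a fatty acid binding protein of glia, gave 1.73 in WT and 10.3 in Dnmt3a-KO on day 4, and 0.763 and 2.49 on day 6. Tbr1, a T-box transcription factor of cortical neurons, gave 0.763 and 3.82 on day 4 and 0.763 and 2.74 on day 6. Ripk4, a kinase of epidermal differentiation, gave 0.968 and 5.35 on day 4 and 1.55 and 4.79 on day 6. None of these 3 genes was well above background in WT on either day. Gdpd2 gave 1.09 and 11.5 on day 4 and 2.51 and 7.08 on day 6, and its WT array of day 4 was not well above background. Of the 95 genes higher on both days, 27 were not well above background in WT on either day, and 32 had no gene symbol.

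Rtn1 and Svop were well above background on all 4 arrays. Rtn1, a reticulon of the endoplasmic reticulum, gave 7.12 in WT and 36.55 in Dnmt3a-KO on day 4, and 8.35 and 24.2 on day 6. Svop, a protein of synaptic vesicles, gave 7.68 and 41.2 on day 4 and 14.25 and 38.7 on day 6. A pair of lens crystallins also lay among the leading genes: Cryaa gave 1.63 and 6.70 on day 4 and 2.24 and 4.70 on day 6, and Cryba2 gave 1.36 and 3.18 on day 4 and 0.989 and 3.89 on day 6. The WT array of day 4 was not well above background for Cryaa, nor was either WT array for Cryba2, so these sizes are bounds. Another probe of Cryaa gave smaller differences of 0.56 and 0.15, and another probe of Pdzrn4 gave -0.85 and 0.92 where the one used gave 2.37 and 1.03.

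Other lists held at most 1 gene that passed 2-fold on both days in a direction. Fas, a death receptor and p53 target, gave 36.1 in WT and 109.0 in Dnmt3a-KO on day 4, and 56.1 and 115 on day 6, and 14 of 21 measured p53 targets were higher on both days, beside 34.7% of all genes, with a median of 0.31 and 0.12. Of 24 measured imprinted genes, Dlk1 was higher with 359 and 738 on day 4 and 102 and 356 on day 6, and Mest was lower with 294 and 81.4 on day 4 and 389 and 120 on day 6. The other probe of Dlk1 and both other probes of Mest had differences of the same sign, and the list median was 0.03 and 0.13. Adipoq, the hormone adiponectin of fat cells, gave 0.909 and 2.33 on day 4 and 0.763 and 1.87 on day 6, at least 2.31-fold and at least 1.60-fold higher, while the list of 16 measured adipocyte markers had a median of -0.32 and -0.16. Hoxc8 gave 1.63 and 3.62 on day 4 and 1.88 and 3.99 on day 6, in a list of 21 Hox and limb genes with medians of -0.21 and 0.26. Neither WT array was well above background for Hoxc8, so its signal was at least 2.23-fold and at least 2.12-fold higher. Col2a1, the cartilage collagen, gave 3.79 and 1.62 on day 4 and 4.85 and 1.94 on day 6, in a list of 14 tendon, cartilage and bone genes with medians of -0.21 and -0.27. Neither Dnmt3a-KO array was well above background for Col2a1, so its signal was at least 2.35-fold and at least 2.50-fold lower.

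Several pathways had no gene at least 2-fold different on both days. For the Wnt pathway (23 measured, medians 0.14 and 0.04) the ligands went both ways: Wnt10a gave 297 and 549 on day 4 and 129 and 346.5 on day 6, and Wnt5a gave 55.6 and 13.5 on day 4 and 45.25 and 24.4 on day 6. For the Notch pathway (15 measured, medians -0.31 and -0.07), the target gene Heyl gave 15.75 and 8.82 on day 4 and 26.15 and 9.99 on day 6. Cdkn1c, an inhibitor of cyclin-dependent kinases, gave 1299 and 383 on day 4 and 984 and 513 on day 6, in a list of 10 inhibitors and related genes with medians of -0.04 and 0.00. Igfbp5, which binds insulin-like growth factors, gave 694 and 280 on day 4 and 544 and 405 on day 6 (13 measured in the IGF pathway, medians -0.12 and -0.03). The interferon list (18 measured) had medians of 0.19 and -0.06, atrophy and Foxo genes (22) 0.12 and 0.11, endoplasmic reticulum stress (24) -0.10 and -0.10, and germline genes silenced by methylation -0.18 and -0.06 with 7 of 24 measured. Genes of the acetylcholine receptor and junction (17) had -0.09 and 0.23, and Ache, the acetylcholinesterase, gave 52.99 and 97.2 on day 4 and 67.5 and 118 on day 6.

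Among markers of blood and vessel cells, Flt1 (above) was the 1 gene at least 2-fold different on both days. The 11 measured macrophage and leukocyte genes had medians of -0.19 and -0.15, and Cd68, C1qa and Lyz2 were not well above background on any of the 4 arrays. For the 10 measured endothelial genes the median was -0.60 on day 4 and 0.07 on day 6, with Tek not well above background on any of the 4 arrays.

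**Figure D4:**
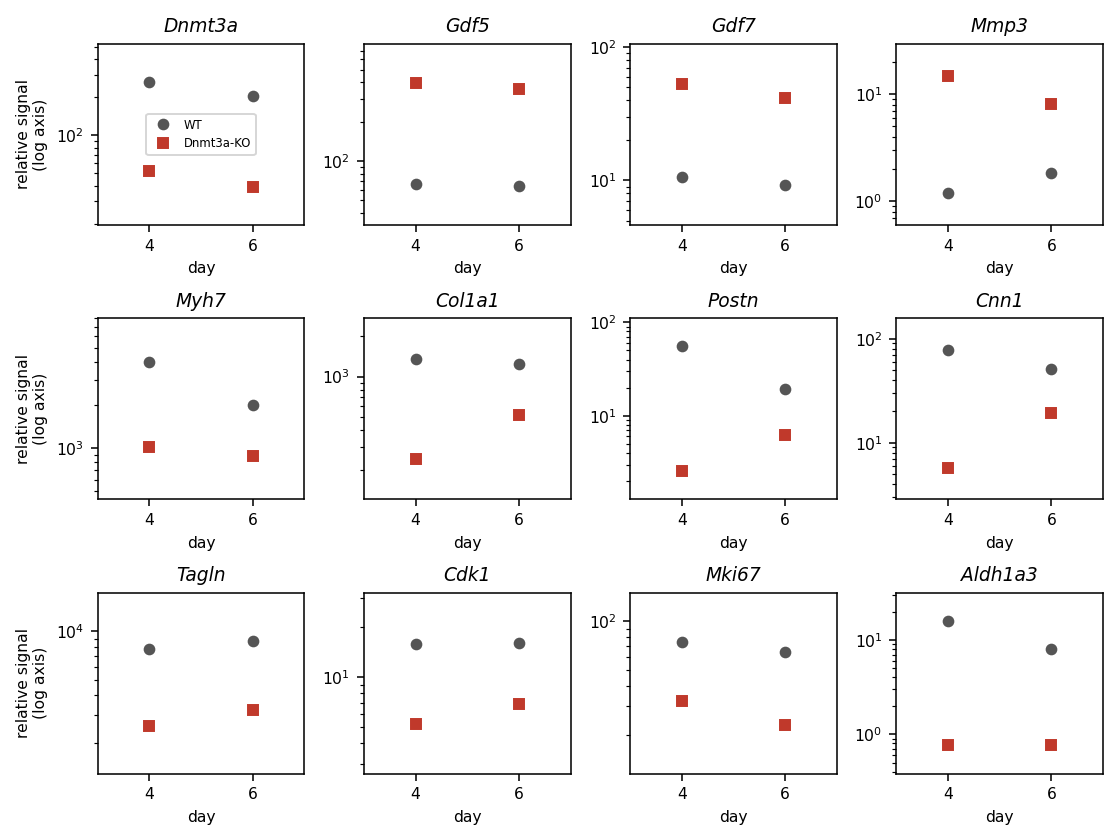
Relative signal (log axis, 100 is the 75th percentile of an array) of 12 genes on days 4 and 6, 1 grey circle for the WT array and 1 red square for the Dnmt3a-KO array of a day. Both Dnmt3a-KO arrays lie above both WT arrays for Gdf5, Gdf7 and Mmp3 and below them for the other 9 genes, and Aldh1a3 stands at the floor of 0.763 on both Dnmt3a-KO arrays.

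Day 4 had differences that day 6 lacked. In 111 genes (0.565%) the signal was at least 2-fold higher and in 190 (0.967%) at least 2-fold lower on day 4 with a difference under 0.5 on day 6. Rbm8a, a core protein of the exon junction complex, had the widest gap: it gave 545 in WT and the floor of 0.763 in Dnmt3a-KO on day 4, and 596.5 and 606 on day 6. Polr2b, a subunit of RNA polymerase II, gave 24.95 in WT and 349.5 in Dnmt3a-KO on day 4, and 349 and 373 on day 6. In both genes 1 array stood apart from the other 3, the Dnmt3a-KO array for Rbm8a and the WT array for Polr2b, and each value rests on 1 probe. The Rbm8a probe lies at chr3:96434833-96434892 of mm9 on the plus strand, has 1 open reading frame through its 60 bases, and is shown because this difference rests on it alone.
Rbm8a probe: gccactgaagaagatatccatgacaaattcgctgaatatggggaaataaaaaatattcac

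Markers of Schwann and neural cells were higher on the WT array of day 4 than on the other 3. S100b gave 24.1 in WT and 5.03 in Dnmt3a-KO on day 4, and 8.10 and 7.14 on day 6. Ngfr, the low-affinity receptor of nerve growth factor, gave 49.1 and 13.3 on day 4 and 11.8 and 8.87 on day 6. Gpm6b, a membrane glycoprotein of glia, gave 24.2 and 2.27 on day 4 and 4.36 and 3.44 on day 6. The 6 defining markers summed to 127 in WT and 46.8 in Dnmt3a-KO on day 4, and to 41.45 and 39.9 on day 6, and all 6 were well above background on all 4 arrays. Of 13 measured genes of that list, 5 were at least 2-fold lower on day 4 and 0 on day 6, beside 3.09% and 1.91% of all genes. The list medians were -0.52 and -0.26. The part of such cells in other day 4 differences was not tested.

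Genes of oxidative phosphorylation and of the fast and shared sarcomere were mostly slightly lower on day 4 and not on day 6. Of all genes, 52.6% were lower and 47.4% higher on day 4, and 45.4% were lower and 54.6% higher on day 6. All 33 measured genes of oxidative phosphorylation were lower on day 4, with a median of -0.26, and 13 were lower on day 6, with a median of 0.02. Most of these differences were small: Cox6a2, the muscle subunit of cytochrome c oxidase, was the 1 member at least 2-fold lower on day 4, with 10220 in WT and 4344 in Dnmt3a-KO, beside 9006 and 7352 on day 6. Of 25 measured genes of glycolysis and glycogen, 22 were lower on day 4 and 14 on day 6, with medians of -0.28 and -0.04. Of 27 measured fast and shared sarcomere genes, 24 were lower on day 4 and 22 were higher on day 6, with medians of -0.17 and 0.10. On day 5 the medians were -0.22 for oxidative phosphorylation, -0.22 for glycolysis and glycogen and -0.09 for the fast and shared sarcomere. On day 2 they were -0.06, 0.03 and 0.30, in the same order. Myh4, a fast myosin heavy chain, gave 2160 and 1070 on day 4 and 869 and 969 on day 6. Myl2, a regulatory light chain of slow and cardiac myosin, gave 4653 and 845 on day 4 and 1570 and 1371 on day 6. For Myl2 the WT array of day 4 was the highest of the 4, and its difference was -2.01 on day 2 and -1.95 on day 5. Acta1, Myh1, Myh3 and other bright muscle genes had spots marked as non-uniform or outlying on a day 4 array and are not in these counts.

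Day 6 also had differences of its own. In 109 genes (0.555%) the signal was at least 2-fold higher and in 74 (0.377%) at least 2-fold lower on day 6 with a difference under 0.5 on day 4. Agxt2, a mitochondrial aminotransferase, gave 3.42 in WT and 52.3 in Dnmt3a-KO on day 6, and 3.33 and 4.25 on day 4. Edn2, the vasoconstrictor endothelin 2, gave 3.70 and 30.5 on day 6 and 6.04 and 6.25 on day 4. Efnb3, an ephrin, gave 1.98 and 18.4 on day 6 and 3.41 and 2.93 on day 4, and its WT array of day 6 was not well above background. In these 3 genes the Dnmt3a-KO array of day 6 stood apart from the other 3 arrays.

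On the lower side, Rbbp9, a serine hydrolase, gave 31.7 in WT and the floor of 0.763 in Dnmt3a-KO on day 6, and 33.0 and 31.3 on day 4. With this probe Rbbp9 was also lower on day 5, with 28.95 in WT and 1.41 in Dnmt3a-KO, a difference of -4.355. Another probe of Rbbp9 gave differences of -0.09 on day 4 and 0.11 on day 6. Ankrd27, a regulator of endosomal traffic, gave 209.5 and 36.95 on day 6 and 203 and 174 on day 4, while its other probe gave -0.17 on day 4 and -0.32 on day 6. For both genes the 2 probes disagreed on day 6. Nos1, the neuronal nitric oxide synthase, gave 11.5 and 1.87 on day 6 and 3.34 and 2.37 on day 4, with the WT array of day 6 as the highest of the 4.

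A few genes were at least 2-fold different in opposite directions on the 2 days, 11 (0.056%) higher on day 4 and lower on day 6, and 9 (0.0458%) the reverse. Tnfsf18, a ligand of the tumour necrosis factor family, gave 4.21 in WT and 17.2 in Dnmt3a-KO on day 4, and 13.7 and 4.17 on day 6. Kcne1l, a potassium channel subunit, gave 76.3 and 12.6 on day 4 and 34.2 and 112 on day 6, and its other probe also changed sign, with -1.10 and 1.27. Most of the others lay near background: in 8 of the 11 and 7 of the 9 genes the dimmer array of day 4 was not well above background.

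The arrays of days 2 and 5 did not enter the rule that chose these genes, although their values were known as well. A limma fit on those 4 arrays (lmFit and eBayes with day as a block, Benjamini-Hochberg adjustment over 19280 genes) found 0 genes (0.0%) with an adjusted p under 0.05. At an unadjusted p under 0.05 there were 1183 genes (6.14%), and 0 genes passed after adjustment in the fit without the block, with trend and robust, or after quantile normalization. The lowest adjusted p was 0.631 with the block, and 1.0 without it, 0.207 with trend and robust and 0.53 after quantile normalization. Dnmt3a differed by -1.66 in this fit (adjusted p = 0.667), so even the targeted gene was not called. The fit had 1 residual degree of freedom and 2.44 of the prior. Any change of a difference between day 2 and day 5, which also differed in scanner, counts as error in it. With so little power, 0 genes called does not show that the genotypes were alike.

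Of the 95 genes higher on days 4 and 6, 55 (57.9%) were also higher on both day 2 and day 5, beside 22.7% of all genes. Of 204 genes lower on days 4 and 6 with values on both other days, 89 (43.6%) were lower on both, beside 28.9%. The median difference of the higher genes was 0.49 on day 2 and 0.49 on day 5, against 1.37 on day 4 and 1.29 on day 6. For the lower genes it was -0.32 on day 2 and -0.14 on day 5, against -1.47 on day 4 and -1.33 on day 6. At least 2-fold higher on all 4 days were 11 genes (0.056%), among them Gdf5, Gdf7, Mmp3, Tbr1 and Svop. At least 2-fold lower on all 4 days were 14 genes (0.0713%), among them Dnmt3a, Myh7, Myh6 and Pcp4l1. In the limma fit of days 2 and 5, Gdf5 differed by 2.30 (adjusted p = 0.631), Gdf7 by 1.62 (adjusted p = 0.631) and Myh7 by -2.53 (adjusted p = 0.631), in the same direction on both days.

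The gene groups differed in what days 2 and 5 showed. The mitosis list had a median of -0.93 on day 2 and 0.02 on day 5, and the G1/S list -0.80 and -0.01. The collagens had 0.08 and 0.03, the matrix glycoproteins 0.11 and 0.18, and the fibro-adipogenic and fibroblast markers 0.66 and 0.13. Slow and cardiac contractile genes had -0.04 on day 2 and -0.44 on day 5. Whether a difference is particular to days 4 and 6 was not tested.

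**Figure D5:**
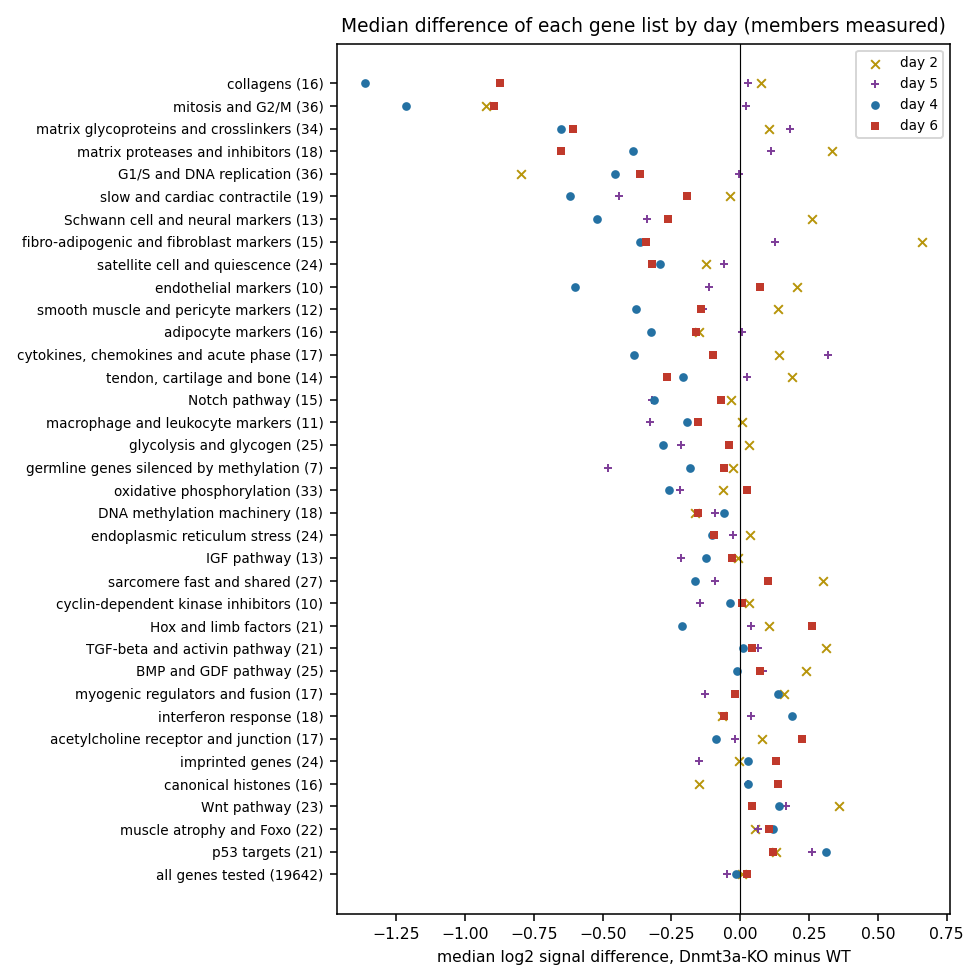
Median log2 difference, Dnmt3a-KO minus WT, of each of 35 gene lists and of all 19642 genes, with the number of measured genes in brackets and 1 symbol a day. Collagens stand at -1.36 on day 4 and -0.87 on day 6 and near 0 on days 2 and 5, and mitosis genes stand at -0.93 on day 2, -1.21 on day 4 and -0.90 on day 6.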

How the data were processed

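RNA of cultured satellite cells was hybridised to 8 one-colour (Cy3) Agilent mouse arrays, 1 per genotype and day, per the labels. Spot intensity is the processed signal of Agilent Feature Extraction 9.5.3.1 on a G2505B scanner for days 4 to 6 and of 11.0.1.1 on a G2505C scanner for day 2, with probe positions on mm9, per the file headers. The submitters' processing notes name Agilent Feature Extraction 9.5. The deposited value table holds a score per spot, and in 100.0% of values it lay within 1 unit of the processed signal scaled so that the 75th percentile of all spots is 100, with negatives at 0. Its scale and direction are thus known, and each of its columns has a median of 6.

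From the intensity, log2 of the signal over the 75th percentile of non-control spots was computed with a floor of 0.00763. Spots that the scanner software marked as non-uniform or as population outliers were not used, which removed 239 probes on days 4 and 6. RefSeq names of GRCm38.p6 were found by accession for 26055 of 39429 probes and replaced 3358 older symbols. The probe with the highest mean stood for a gene. A difference against a group not well above background is a bound, at least N-fold, against the dim signal or that array's lowest detected signal, whichever is higher. Days 2 and 5 were fitted with limma 3.58.1 in R 4.3.3 with 1 residual degree of freedom and 2.44 of the prior. The fit was also run on simulated data with known changes, and that outcome is not given here.

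The members and the 35 gene lists were chosen with earlier results of these data known. Named genes are Dnmt3a, the 15 largest mean differences shared by both days in each direction, the 8 largest of each day alone and direction, the 5 largest of each opposite pattern, and up to 4 shared genes of a list and direction (2 where a list has none). Genes with no symbol were counted only, and some named by the rule are not reported here. No genome was used, so exon and UTR placement is not given. Alternatives covered scaling, background, floor, filter, probe choice and fold. Nothing in the labels ties arrays to separate cultures or animals.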

Additional observations from a re-analysis of the deposited data

Results flagged for a closer look

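Some gene lists had medians under 0 on both day 4 and day 6 and over 0 on both day 2 and day 5, and none of these differences was tested. A list was flagged only where its medians of both day 4 and day 6 passed a fixed size. Lists that missed this size on either day were not flagged. Among those, tendon, cartilage and bone had -0.21 and -0.27 on days 4 and 6, and 0.19 and 0.02 on days 2 and 5. Cytokines, chemokines and acute phase genes had -0.38 and -0.10, and 0.14 and 0.32. For the collagens the medians of days 2 and 5 were close to 0, at 0.08 and 0.03. The mean of the list medians of days 4 and 6 minus that of days 2 and 5 was -1.17 for the collagens, -0.77 for the matrix glycoproteins and crosslinkers, -0.74 for the matrix proteases and inhibitors, and -0.75 for the fibro-adipogenic and fibroblast markers, in log2 units.

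The genes with opposite differences on day 4 and day 6 were not tested either. Day 4 minus day 6 came to 3.75 for Tnfsf18, 3.35 for Tnfrsf26, 3.01 for Fam48b1, 3.42 for Trav13n-1 and 2.40 for Grap. It came to -4.31 for Kcne1l, -3.61 for the fibrillin gene Fbn2, -4.03 for Trap1a, -3.03 for Vax2os and -2.79 for Arhgap36.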

How the results depend on the processing

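No result changed direction under any alternative tried, over the list medians of 0.1 or more and the 191 day differences of at least 2-fold of the named genes. The filter settings reuse the same values, so a named gene's difference could not change under them. Requiring all 4 arrays well above background covered 110 of the 191 differences, and requiring 4 of 8 covered 172. List medians nearer to 0 changed sign under some settings. Normexp with offset 50 and quantile normalization gave smaller differences, and the cause was not tested: 60 of the 191 differences stayed at least 2-fold, and the counts were 7 genes higher and 29 lower on both days, 38 and 99 on day 4, 30 and 50 on day 6, 16 and 33 on day 4 alone, and 12 and 6 on day 6 alone. At 1.5-fold the counts, in the same order, were 326 and 642, 1016 and 1542, 945 and 1139, 581 and 742, and 488 and 371. At 3-fold they were 15 and 31, 77 and 199, 84 and 97, 19 and 55, and 36 and 17. Requiring all 4 arrays well above background gave 56 higher on both days, 187 higher on day 4, 146 higher and 242 lower on day 6, and 53 higher and 46 lower on day 6 alone. Requiring 1 of the 4 gave 482 higher on day 4, 500 higher on day 6, 236 and 311 on day 4 alone, and 274 and 200 on day 6 alone, and a correlation of the days of 0.34. The deposited value table gave 465 higher on day 4, 197 higher on day 4 alone and 115 lower on day 6 alone. Leaving out a day leaves the other day's own count, 287 to 306 higher and 375 to 607 lower. The other settings kept these counts within 1.5 times. The fit of days 2 and 5 called 0 genes with the replicate block of day, 0 with no replicate block, 0 with trend and robust and 0 after quantile normalization, with 1183, 61, 1256 and 1185 genes at an unadjusted p under 0.05. Keeping the marked spots, added after seeing the data, gave 95 higher and 204 lower on both days, and 19778 genes in place of 19642. Low signals limit the precision: 42 of the 205 lower and 27 of the 95 higher genes are bounds on both days. The number of arrays, 1 per genotype and day, limits every comparison.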
